A study of Mus musculus with 8 samples.

Results

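The genes described here are *Nphs1*, *Magi2*, *Podxl*, *Synpo*, and *Wt1*, which mark podocytes, and *Col4a3*, *Col4a4*, *Col4a5*, and *Lamb2*, which encode chains of the glomerular basement membrane. They were chosen by name as a cell type and structure of interest, with earlier results of these data known. All 9 were found among the 55367 genes listed in the counts. All 9 also passed the filter on low counts, which kept 20149 genes for testing. RNA-Seq libraries came from whole kidneys of C57BL/6J mice labelled as 8 weeks old, with 4 c-Maf ΔTAM mice (Maf conditional KO in the labels, ΔTAM mice below) and 4 control mice (c-Maf fl/fl). Both groups carried floxed *c-Maf* alleles and received tamoxifen (TAM), and the c-Maf ΔTAM mice also carried *CAG-Cre-ER*™, whose ubiquitous promoter makes the deletion a whole-body one. The control mice had no Cre, so an effect of Cre itself cannot be told apart from the loss of *c-Maf*. The labels gave no sex, and each mouse was 1 replicate.

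Podocytes wrap the glomerular capillaries with foot processes, and neighboring processes are bridged by the slit diaphragm, a junction built around nephrin, the product of *Nphs1*. Beneath them lies the glomerular basement membrane, in which the α3, α4, and α5 chains of type IV collagen form a network together with laminins that contain the β2 chain. Defects of the collagen chains cause Alport syndrome, and the same network is also found in the basement membranes of some distal tubules, so whole-kidney transcripts of these chains need not come from podocytes alone.

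Levels are given as CPM, the counts scaled to a common library size with TMM factors, and each list of values runs from mouse 1 to mouse 4. The libraries held between 16649129 and 22990257 counts. *Maf*, the targeted gene, was at 9.06, 34.5, 29.6, and 10.1 CPM in ΔTAM mice and at 379.9, 342, 305, and 351 CPM in control mice, with every ΔTAM mouse far below every control mouse. The labels' RNA protocol speaks of liver and the tissue label of kidney. The summed level of 8 tubule markers was 12096 to 17541 CPM in ΔTAM mice and 18625 to 20844 CPM in control mice, and that of 6 hepatocyte markers 33.0 to 59.0 CPM, with *Ahsg* at 0 in all mice. The libraries of 3 mice stood apart: *Xist*, the transcript of the inactive X chromosome, was counted 2 times in ΔTAM mouse 1, 6 times in control mouse 3, and 22 times in control mouse 4, against 17618 times or more in the other 5 mice. Results are therefore also given with *Xist* (log2 level) entered as a covariate and for the 5 mice with high *Xist*.

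None of the 5 podocyte genes passed the test between the genotypes, while every ΔTAM mouse lay below every control mouse for the adjacent pair *Col4a3* and *Col4a4*. *Col4a3* fell by 23.3% and was the 1 gene of the 9 that passed edgeR's quasi-likelihood test after Benjamini-Hochberg adjustment at 0.05. Over all tested genes, 2.16% passed in either direction, 1.58% as lower and 0.586% as higher, and an unadjusted *P* under 0.05 was found for 14%, 7.44% as lower and 6.58% as higher. The other 8 genes gave no call, and the interval beside each states how large a difference the data allow.

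**Figure D1:**
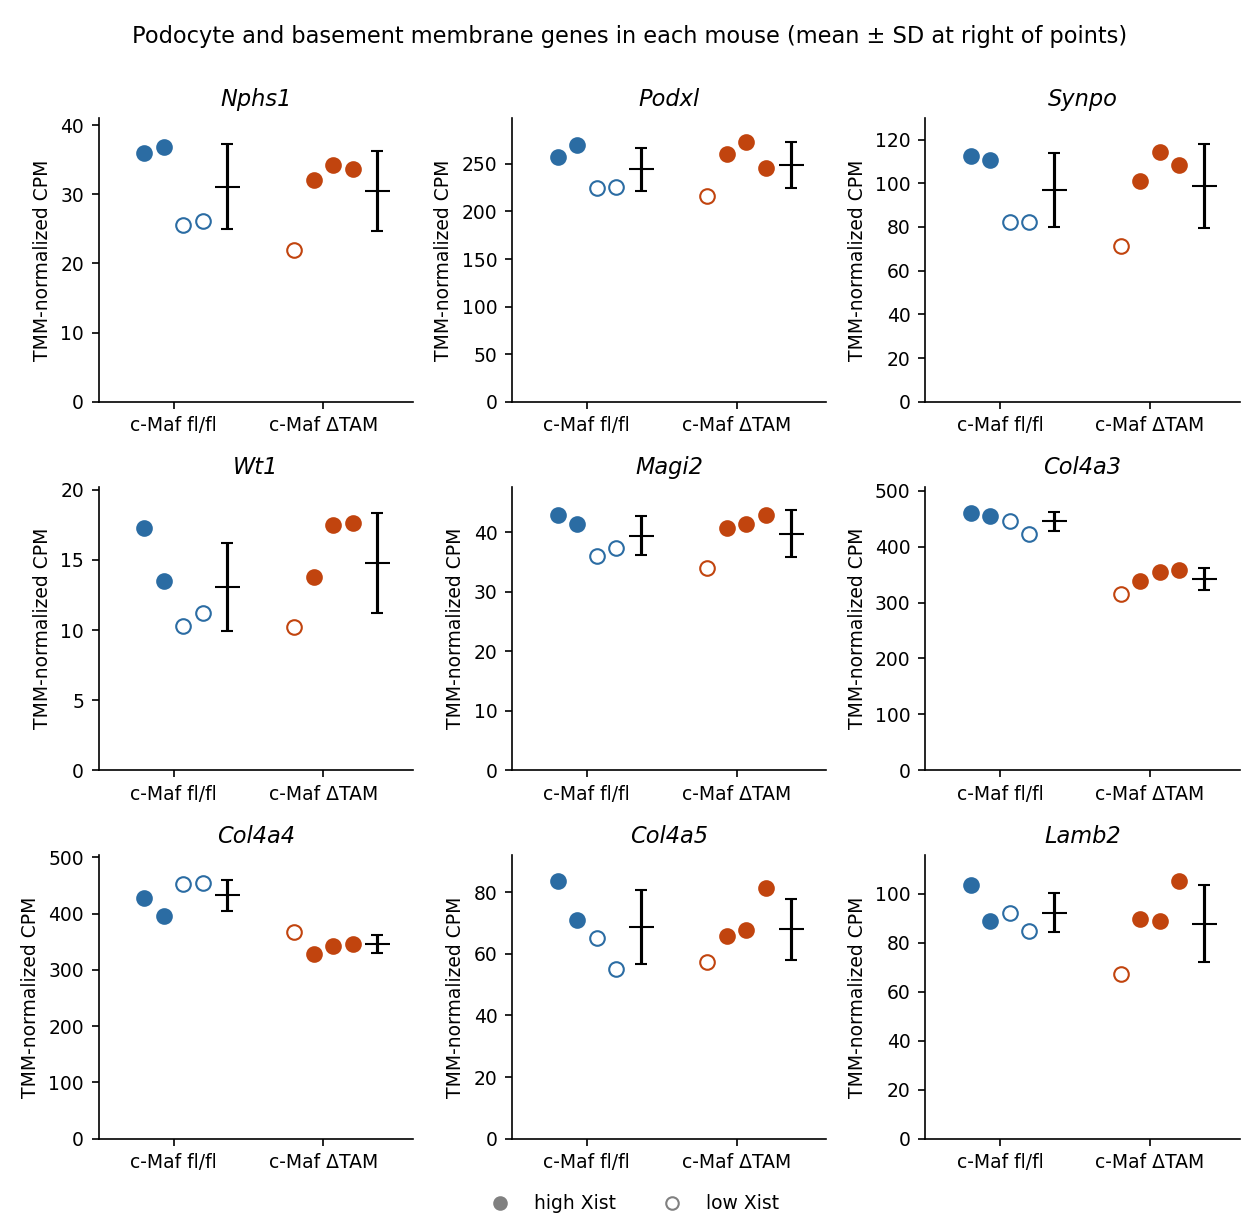
Levels of the 9 genes in each mouse, on a y axis of TMM-normalized CPM that starts at 0. Blue points are control (c-Maf fl/fl) mice and orange points c-Maf ΔTAM mice, in order from mouse 1 to 4, open points are the 3 mice with low *Xist*, and the bars give mean ± SD (n = 4). The genotypes separate for *Col4a3* and *Col4a4*, and the open points lie below the filled points of their own genotype for all 5 podocyte genes.

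*Nphs1* encodes nephrin, the transmembrane protein of the slit diaphragm. It was at 21.9, 32.0, 34.2, and 33.7 CPM in ΔTAM mice and at 36.0, 36.8, 25.5, and 26.1 CPM in control mice. The ranges overlapped, and the lowest value of each genotype came from a mouse with low *Xist*. The means were 30.5 ± 5.77 CPM (SD, n = 4) and 31.1 ± 6.13 CPM (SD, n = 4), and the log2 fold change, ΔTAM relative to control, was -0.03 with a 95% confidence interval from -0.40 to 0.34. In linear terms the interval ran from 24.3% lower to 26.4% higher. *Nphs1* lies at chr7:30458315-30487223 on the plus strand of GRCm38 and shares 11.8% of its exonic bases with the antisense gene *Nphs1os* and the pseudogene *Rps12-ps4*. Reads on the shared bases were not counted for any gene, and *Nphs1os* had at most 20 counts in a mouse.

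*Magi2*, at chr5:19227036-20704792 on the plus strand, encodes a scaffold protein that binds nephrin inside the foot process. Its levels were 34.0, 40.6, 41.4, and 42.8 CPM in ΔTAM mice and 42.9, 41.4, 36.0, and 37.3 CPM in control mice. The genotypes overlapped, and the mice with low *Xist* were again the lowest of each. The log2 fold change was 0.01, and its interval, from -0.20 to 0.22, was the narrowest among the 5 podocyte genes.

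The apical and cytoskeletal genes gave no call either. *Podxl* (chr6:31519488-31563981, minus strand) encodes podocalyxin, the negatively charged coat protein of the foot processes, which is also made by endothelial cells. It was the most abundant podocyte gene, at 216.5, 260.5, 273, and 245.5 CPM in ΔTAM mice and 257, 269, 225, and 225 CPM in control mice. Its log2 fold change was 0.03 (interval -0.19 to 0.25). *Synpo* (chr18:60593973-60660142, minus strand), which encodes the actin-binding protein synaptopodin, was at 71.4, 101, 114.5, and 108 CPM in ΔTAM mice and at 112.5, 111, 82.3, and 82.3 CPM in control mice. Its log2 fold change was 0.03 as well, with a wider interval from -0.33 to 0.38. For both genes the 4 values of each genotype spanned nearly the same range.

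*Wt1*, at chr2:105126529-105173616 on the plus strand, encodes the transcription factor that maintains podocyte identity in the adult kidney. It was the lowest of the 9 genes and the least precise, with 191 to 352 counts per mouse. Levels were 10.2, 13.8, 17.5, and 17.6 CPM in ΔTAM mice and 17.3, 13.5, 10.3, and 11.2 CPM in control mice. The groups overlapped along their whole range, and the log2 fold change was 0.17, with an interval from -0.27 to 0.62. A rise of up to 53.7% or a fall of up to 17.2% therefore lay within the interval, so a moderate difference in *Wt1* was not detectable with these mice. Adjusted *P* values of the 5 podocyte genes in edgeR's quasi-likelihood test were between 0.769 and 0.978. No podocyte gene passed at an unadjusted *P* of 0.05 or in DESeq2. In whole-kidney RNA, fewer podocytes and less RNA per podocyte cannot be told apart.

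The ratio between 2 genes in the same library does not depend on how libraries are scaled. *Synpo* stood at 3.26, 3.15, 3.35, and 3.22 times *Nphs1* in ΔTAM mice and at 3.12, 3.01, 3.22, and 3.16 times *Nphs1* in control mice, the steadiest of the 7 ratios examined. Its mean log2 ratio was 0.052 higher in ΔTAM mice (2-sided exact permutation *P* = 0.143, 0.334 after adjustment over the 7 ratios). *Wt1* over *Nphs1* was 0.202 higher (exact *P* = 0.114, adjusted 0.334), *Podxl* over *Nphs1* 0.058 higher (exact *P* = 0.629, adjusted 0.734), and *Magi2* over *Nphs1* 0.040 higher (exact *P* = 0.771, adjusted 0.771). With 4 mice against 4, the smallest *P* this test can give is 0.0286. The 4 ratios to *Nphs1* share its counts and are not independent of each other.

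*Col4a3* encodes the α3 chain of type IV collagen, the chain targeted in Goodpasture disease. It was at 316, 338, 355, and 359 CPM in ΔTAM mice and at 460.5, 455, 445, and 422 CPM in control mice. The highest ΔTAM mouse lay well below the lowest control mouse. Means were 342 ± 19.7 CPM (SD, n = 4) and 446 ± 16.9 CPM (SD, n = 4), a log2 fold change of -0.38 (standard error 0.0825, interval -0.56 to -0.20) with an adjusted *P* of 0.0349 in edgeR's quasi-likelihood test. The call was a narrow one. When any 1 of the 8 mice was left out the log2 fold change stayed between -0.41 and -0.34, but the adjusted *P* rose to between 0.0519 and 0.122. It was also 0.0622 with upper-quartile scaling.

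*Col4a4* encodes the α4 chain. Its levels were 368, 328.5, 342, and 346 CPM in ΔTAM mice and 428, 395, 452, and 455 CPM in control mice. The genotypes did not overlap here either, with the closest values, 368 and 395 CPM, coming from ΔTAM mouse 1 and control mouse 2. The log2 fold change was -0.32 (standard error 0.0850, interval -0.51 to -0.13), which did not pass in edgeR's quasi-likelihood test (adjusted *P* = 0.0859) but did in DESeq2 (adjusted *P* = 0.00581). *Col4a3* and *Col4a4* were the 2 genes of the 9 whose genotypes did not overlap, both lower, against 5.62% of all tested genes that did so in that direction and 9.79% in either. Since the pair was measured in the same 8 mice, it is not 2 independent observations. The summed tubule markers were also lower in every ΔTAM mouse than in every control mouse. Of these, 1 was called, *Slc34a1*, the phosphate transporter of the proximal tubule, at 1747, 1972, 1779, and 1481 CPM in ΔTAM mice and 3501, 3893, 4463, and 4532 CPM in control mice (log2 fold change -1.23, adjusted *P* = 0.000217, edgeR's quasi-likelihood test). Without it, a step chosen after its values were seen, the sums were 10349 to 15569 CPM and 14093 to 16951 CPM and overlapped. The part of tubular cells in the values of *Col4a3* and *Col4a4* was not tested.

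*Col4a3* and *Col4a4* stand head to head on chromosome 1 of GRCm38, *Col4a4* at chr1:82448423-82586849 on the minus strand and *Col4a3* at chr1:82586921-82722059 on the plus strand. Only 71 bases separate the first exon of the one from that of the other, and no annotated exon overlaps them. *Col4a3* shares 5.65% of its exonic bases with *C430014B12Rik* on the other strand, which was at 2.26 to 4.94 CPM, and *Col4a4* shares none. The stretch between the pair is shown because the 2 genes whose genotypes did not overlap start at its ends. It is chr1:82586850-82586920 in the GRCm38.p6 sequence of RefSeq, read here on the minus strand in the direction of *Col4a4*, with a GC content of 69%:
Col4a4-Col4a3 gap: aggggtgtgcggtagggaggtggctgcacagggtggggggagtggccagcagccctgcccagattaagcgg
The bases before the start of *Col4a5*, at chrX:141475169-141475384 on the plus strand of the same build, are given for comparison, since the gene of the α5 chain gave no call. Their GC content is 52.3%:
Col4a5 upstream: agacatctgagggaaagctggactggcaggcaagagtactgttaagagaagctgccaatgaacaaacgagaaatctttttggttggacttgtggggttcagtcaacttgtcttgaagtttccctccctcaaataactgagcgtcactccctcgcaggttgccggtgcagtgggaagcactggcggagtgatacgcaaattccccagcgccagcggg

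Large Maf proteins bind the Maf recognition element, whose full TRE-type and CRE-type forms were searched, together with the inner TRE letters TGACTCA and the left arm TGCTGA alone. The GC box GGGCGG was searched as well, all on both strands, and the shorter Maf letters lie within the longer ones. None of these letters occurs in either stretch, so both are printed without capitals. Over the 32851 promoter windows of 300 bases in the RefSeq table, TGACTCA occurs in 5.2%, TGCTGA in 19.5%, and GGGCGG in 35.7%. The full forms occur in 0.00304% and 0%. Both stretches, at 71 and 216 bases, are shorter than these windows, so these shares are too high a measure for them. Promoter windows were listed for 5 of the 9 genes, 6 windows in all, and none holds any of the Maf letters, while GGGCGG is in 1 window of *Magi2* and in that of *Col4a5*. These matches describe letters in short windows and say nothing about binding elsewhere.

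*Col4a5*, at chrX:141475385-141689234 on the plus strand, encodes the α5 chain, which assembles with α3 and α4. It was at 57.3, 65.6, 67.5, and 81.2 CPM in ΔTAM mice and at 83.7, 70.9, 65.2, and 55.1 CPM in control mice. The genotypes overlapped along nearly the whole range, and the log2 fold change was -0.02 (interval -0.31 to 0.28). Relative to *Col4a3* of the same library, *Col4a5* stood at 0.182, 0.194, 0.190, and 0.226 in ΔTAM mice and at 0.182, 0.156, 0.147, and 0.131 in control mice. The mean log2 ratio was 0.371 higher in ΔTAM mice, with control mouse 1 reaching the level of ΔTAM mouse 1 (exact permutation *P* = 0.0571, adjusted 0.334). The ratio of *Col4a3* to *Col4a4* differed by -0.064 (exact permutation *P* = 0.543, adjusted 0.734), and in 3 of the ΔTAM mice it was 1.03 to 1.04, against 0.858 in mouse 1.

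**Figure D2:**
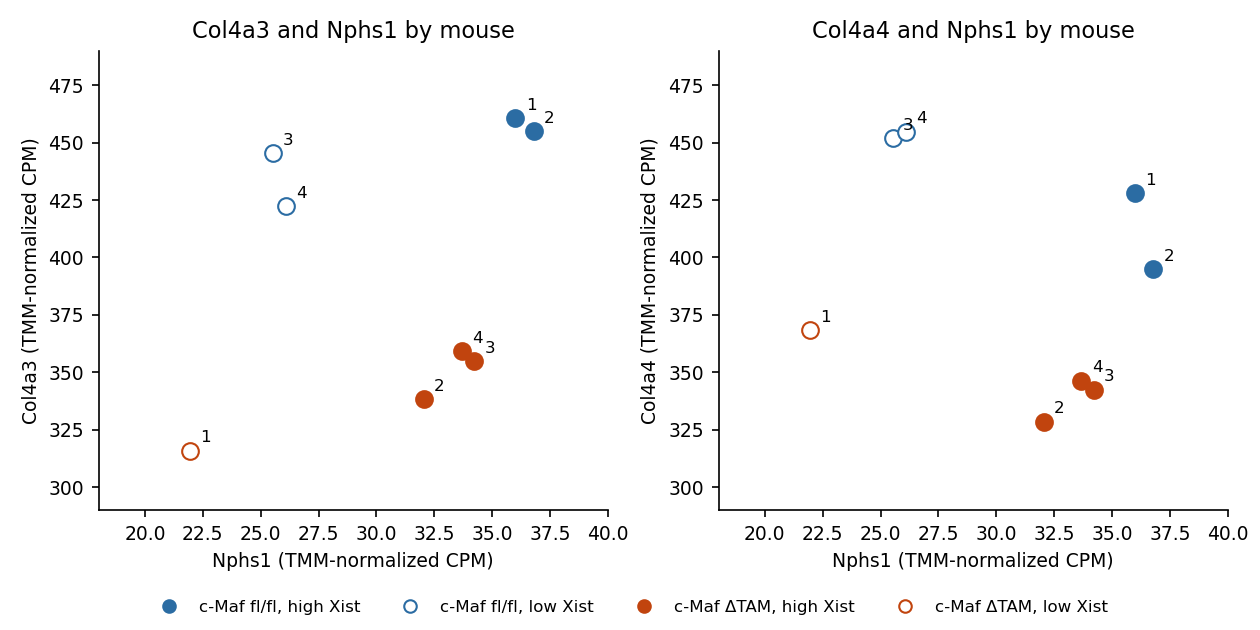
*Col4a3* (left) and *Col4a4* (right) plotted against *Nphs1* for each mouse, all in TMM-normalized CPM on axes that do not start at 0, with mouse numbers beside the points. Along the x axis the open points (low *Xist*) lie left of the filled points in both genotypes, whereas along the y axis the blue c-Maf fl/fl mice, at 395 CPM or more, lie above the orange c-Maf ΔTAM mice, at 368 CPM or less.

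*Lamb2*, at chr9:108479736-108490530 on the plus strand, encodes the laminin β2 chain, the β chain of the mature glomerular basement membrane. It was at 67.1, 89.9, 88.9, and 105 CPM in ΔTAM mice and at 103, 88.7, 92.2, and 85.0 CPM in control mice. Apart from the low value of ΔTAM mouse 1, the groups covered the same range. The log2 fold change was -0.07 (interval -0.34 to 0.20). *Lamb1*, the chain that *Lamb2* replaces as glomeruli mature and that tubules also make, had a log2 fold change of -0.17 (adjusted *P* = 0.453 in edgeR's quasi-likelihood test), and the ratio of *Lamb2* to *Lamb1* differed by 0.076 (exact permutation *P* = 0.571, adjusted 0.734).

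Per kb of exon, the levels of the 9 genes in control mice fell into a high group and a graded rest. *Col4a3* at 44.7 ± 1.70, *Podxl* at 44.5 ± 4.12, and *Col4a4* at 40.8 ± 2.61 CPM per kb (SD, n = 4) led the order. The mice of *Podxl* overlapped with those of both collagen genes, and *Col4a3* lay above every *Col4a4* value in 3 of 4 control mice. *Lamb2* followed at 15.2 ± 1.31 CPM per kb. *Col4a5* and *Synpo* could not be separated, both at 10.2 with an SD of 1.78 CPM per kb. *Nphs1* at 4.70 ± 0.925, *Magi2* at 3.47 ± 0.289, and *Wt1* at 2.11 ± 0.502 CPM per kb closed the order, each without overlap of its mice with the next. The RNA of *Col4a5* was thus well below that of *Col4a3* and *Col4a4* in whole kidney, and amounts of the protein chains were not measured. In ΔTAM mice *Podxl*, at 45.3 ± 4.43, stood above *Col4a3*, at 34.3 ± 1.97, and *Col4a4*, at 32.6 ± 1.55 CPM per kb, and the order of the means below them was the same but for *Synpo* and *Col4a5*. In these mice *Col4a3* overlapped with *Col4a4*, *Lamb2* with *Synpo* and *Col4a5*, and *Nphs1* with *Magi2*. These lengths join the exons of all transcripts of a gene, so a gene with many isoforms may be understated.

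**Figure D3:**
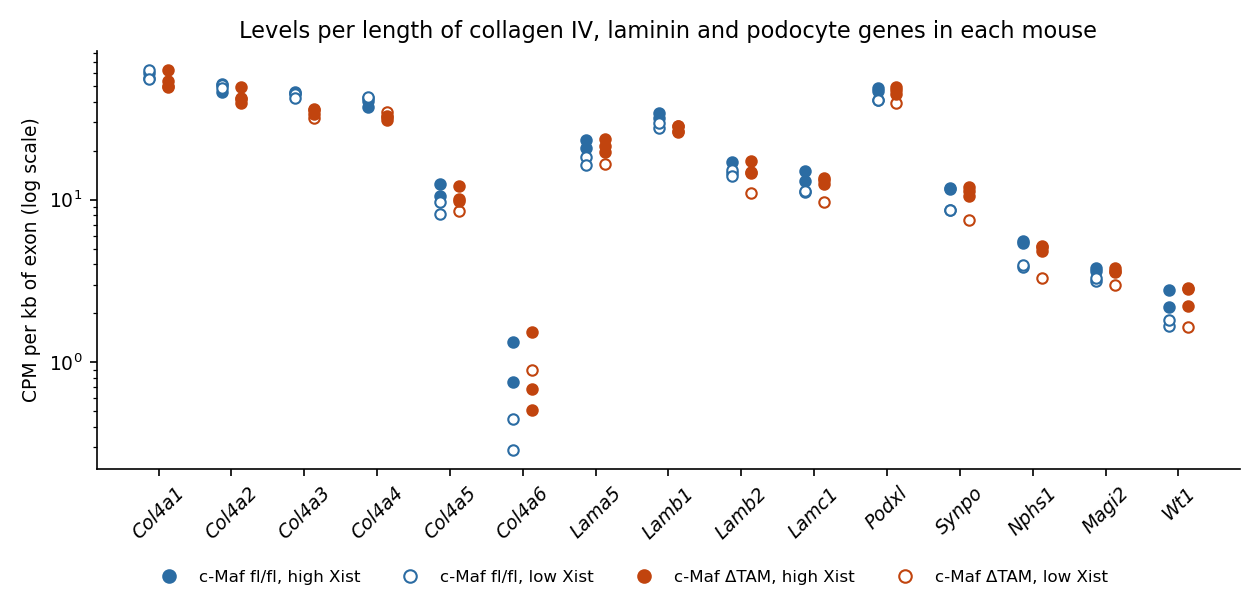
Levels per length for the collagen IV, laminin, and podocyte genes in each mouse, in CPM per kb of exon on a log scale, with the genotypes side by side and open points for mice with low *Xist*. *Col4a3* and *Col4a4* are close to *Podxl* at the top of the 9 genes in c-Maf fl/fl mice (40.8 to 44.7), *Col4a5* is near 10.2, and *Wt1* is the lowest of the 9 at 2.11.

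Within each genotype, the 5 podocyte genes differed between the mice with low and high *Xist*. All 5 were lower in the mice with low *Xist* than in every mouse with high *Xist* of the same genotype, in both genotypes. Of all tested genes, 13.5% did so. In ΔTAM mouse 1, *Nphs1* was 34.2%, *Synpo* 33.8%, and *Wt1* 37.5% below the mean of the other 3 mice of its genotype. In control mice 3 and 4, the same genes were 29.1%, 26.3%, and 30.1% below mice 1 and 2. The shortfalls of *Podxl* (16.6% and 14.5%) and *Magi2* (18.3% and 13%) were smaller. *Col4a5* (19.7% and 22.2%) and *Col4a3* (9.95% and 5.23%) had the same order, *Lamb2* did not, and *Col4a4* was higher in the mice with low *Xist* in both genotypes, as 13.6% of all tested genes were.

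The same order was found beyond these genes, in 5 of 13 further slit diaphragm genes, 4 of 9 podocyte transcription factors, 5 of 11 cytoskeletal genes, and 6 of 12 other podocyte genes. Beyond podocytes, it was found in 8 of 13 other basement membrane genes, 2 of 6 basement membrane receptors, 4 of 8 tubule markers, 3 of 5 tested hepatocyte markers, and 1 of 6 mesangial genes. Of all tested genes, 13.5% had this order, and the mesangial share, at 16.7%, was near that. The share of mitochondrial counts was 32.3% in ΔTAM mouse 1 and 25.5% in control mouse 4, but 18.7% in control mouse 3, against 17.1% to 22.1% in the mice with high *Xist*. The summed level of the 8 endothelial genes was 514 and 586 CPM in the control mice with low *Xist*, against 522 and 556 CPM in those with high *Xist*. It was 492.5 CPM in ΔTAM mouse 1, against 492 to 529.5 CPM in the other ΔTAM mice. None of these 8 genes followed the order of the podocyte genes in both genotypes, which in so short a list is not far from a share of 13.5%. The part of these measures in the difference was not tested, and with 1 mouse of low *Xist* among the ΔTAM mice, no test was run within that class.

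With *Xist* as a covariate the intervals of the podocyte genes narrowed. The log2 fold change of *Nphs1* was then -0.15 (interval -0.32 to 0.02) and that of *Synpo* -0.09 (interval -0.24 to 0.06), and none of the 5 was called. *Col4a3* stood at -0.41 (adjusted *P* = 0.00107) and *Col4a4* at -0.29 (adjusted *P* = 0.0145) in this edgeR quasi-likelihood fit, which called 7.3% of all tested genes. Among the 5 mice with high *Xist*, *Col4a3* was at -0.39 (adjusted *P* = 0.0117) and *Col4a4* at -0.28 (adjusted *P* = 0.0824) in the same test, with 3.75% of genes called. Within the mice with low *Xist*, *Col4a3* in the ΔTAM mouse was 0.728 times and *Col4a4* 0.812 times the mean of the 2 control mice, with no test. The other 7 genes were at 0.757 (*Lamb2*) to 0.962 (*Podxl*) times that mean, *Lamb2* being lower than *Col4a4*.

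**Figure D4:**
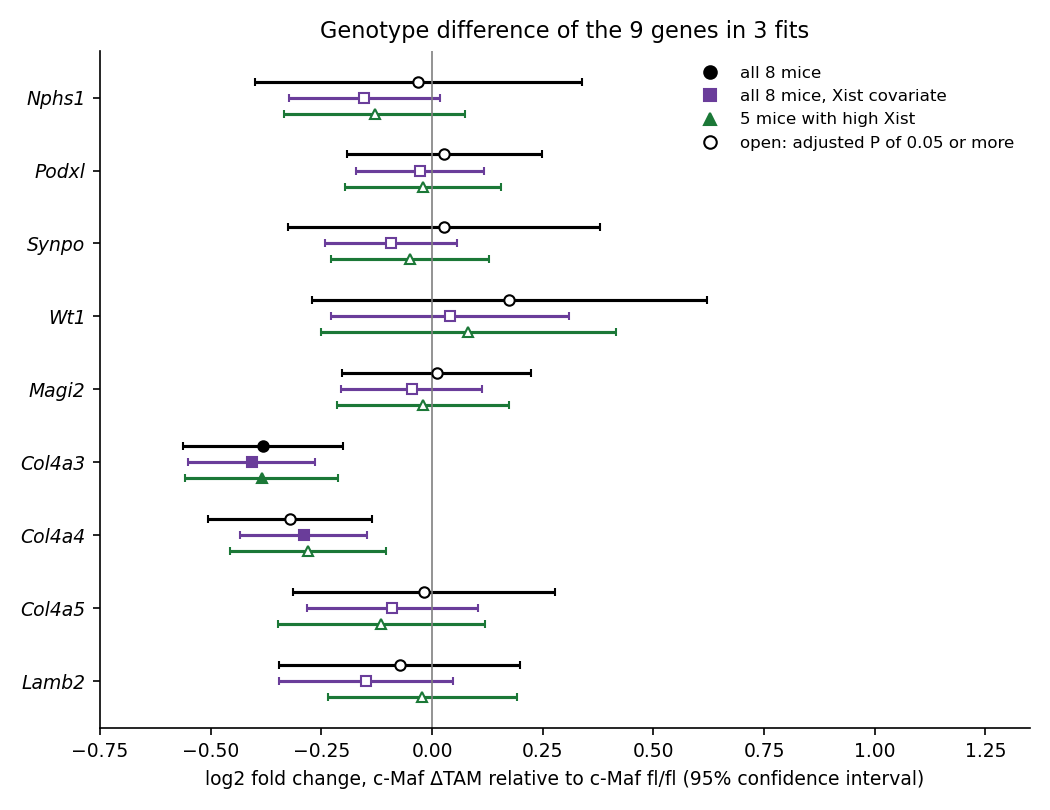
Log2 fold change of each gene, c-Maf ΔTAM relative to control, with 95% confidence intervals, in the fit of all 8 mice (circles), with *Xist* as a covariate (squares), and in the 5 mice with high *Xist* (triangles). Filled symbols passed the adjusted threshold of 0.05: *Col4a3* in all 3 fits (-0.38, -0.41, and -0.39) and *Col4a4* with the covariate (-0.29), while the intervals of the other 7 genes include 0.

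The genes whose levels over the 8 mice were most like the mean profile of *Nphs1*, *Podxl*, *Synpo*, and *Wt1* were *Cspg4* (Pearson r = 0.984), *Hgfac* (0.982), *Cbr1* (0.981), *Foxc2* (0.980), and *Gm2223* (0.980), out of 17475 genes with at least 1 CPM. *Foxc2* is a podocyte transcription factor. *Xist* itself was the seventh, at 0.976. These values describe 8 points that fall into 3 mice with a low and 5 with a high profile, so they largely restate that split.

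Beyond the 9 genes, 45 of 46 listed podocyte genes were tested (*Kirrel2* was too low). Of these, 2 fell and 0 rose at the adjusted threshold, with 6 lower and 4 higher at an unadjusted *P* of 0.05. Over all tested genes, 1.58% fell and 0.586% rose at the adjusted threshold. At the unadjusted one, 7.44% were lower and 6.58% higher. The median log2 fold change of the 45 podocyte genes was -0.03, against 0.0027 over all tested genes. *Ezr*, which encodes the membrane-actin linker ezrin and is also abundant in proximal tubule brush borders, was at 240.5, 297, 308, and 305 CPM in ΔTAM mice and at 438, 430.3, 341, and 423 CPM in control mice. It fell by 0.50 on the log2 scale (adjusted *P* = 0.0398, edgeR's quasi-likelihood test). *Vegfa*, the endothelial growth factor that podocytes and tubules secrete, was at 143, 170.3, 179, and 160.1 CPM and at 196, 221, 245, and 250 CPM, and fell by 0.48 (adjusted *P* = 0.0339 in the same test). The genotypes did not overlap for either gene. Both calls were fragile: *Ezr* kept its call in the fit without control mouse 3 (adjusted *P* = 0.0275) and *Vegfa* in the fit without control mouse 1 (adjusted *P* = 0.0212), and in the other 7 fits without 1 mouse edgeR gave adjusted *P* values from 0.0550 to 0.111 and from 0.0551 to 0.112. Among the mice with high *Xist*, *Ezr* was at -0.52 (adjusted *P* = 0.00104) and *Vegfa* at -0.30 (adjusted *P* = 0.0765) in edgeR.

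The other podocyte lists differed in their medians, with no test of them as lists. The slit diaphragm list (13 tested, median 0.15) held 0 calls, with 2 genes higher and 2 lower at an unadjusted *P* of 0.05. Over all tested genes, 6.58% were higher and 7.44% lower at that threshold. The adaptor gene *Cd2ap* (0.31, adjusted *P* = 0.0804), the cadherin gene *Fat1* (0.37, adjusted *P* = 0.123), and the adaptor gene *Nck2* (-0.36, adjusted *P* = 0.147) came nearest to a call in edgeR's quasi-likelihood test. Among 9 podocyte transcription factors (median 0.02), *Zeb2* (0.37, adjusted *P* = 0.109), *Dach1* (0.13, adjusted *P* = 0.624), and *Foxc1* (-0.15, adjusted *P* = 0.713) had the smallest *P* values in that test. Of 11 cytoskeletal genes, 10 lay below 0 (median -0.16), as did 9983 of all 20149 tested genes. *Ezr* was the 1 call, against 1.58% of all tested genes called lower. With *Xist* as a covariate, of the podocyte and basement membrane lists, *Cd2ap*, *Fat1*, *Zeb2*, and *Npnt* passed as higher, and *Ezr*, *Vegfa*, *Sema3g*, *Robo2*, *Actn4*, and the basement membrane linker gene *Nid2* as lower.

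*Npnt*, which encodes nephronectin, a basement membrane ligand of integrin α8β1, had the largest positive value in these lists and was picked for that after its values were seen. It was at 258, 328, 354, and 287 CPM in ΔTAM mice and at 227, 238, 179.5, and 148 CPM in control mice. The genotypes did not overlap, and the log2 fold change was 0.63 (adjusted *P* = 0.0661 in edgeR's quasi-likelihood test, 0.000796 with *Xist* as a covariate).

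Of the other basement membrane genes, none of 13 chains and linkers and none of 6 receptors passed edgeR's quasi-likelihood test, 0 did at an unadjusted *P* of 0.05, and the log2 fold changes lay between -0.19 and 0.35. The widespread chains *Col4a1* (-0.11, interval -0.33 to 0.11) and *Col4a2* (-0.19, interval -0.39 to 0.01) lay below 0 without a call, at adjusted *P* values of 0.681 and 0.385. *Nid1*, which encodes the linker nidogen, was at 0.12 (adjusted *P* = 0.645). Of the receptors, the integrin gene *Itga3* was at 0.17, the dystroglycan gene *Dag1* at 0.09, and the collagen receptor gene *Ddr1* at -0.07, with adjusted *P* values of 0.540, 0.743, and 0.849. Whether *Col4a3* fell more than *Col4a1* or *Col4a2* was not tested.

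Of 8 endothelial genes (median -0.08), *Kdr*, which encodes the main receptor of the *Vegfa* product, fell by 0.37 (adjusted *P* = 0.0450 in edgeR's quasi-likelihood test). It was the 1 call among the 8, against 1.58% of all tested genes called lower. It was at 85.8, 88.1, 89.5, and 75.5 CPM in ΔTAM mice and at 107, 105, 120.5, and 106 CPM in control mice, with no overlap. As with *Col4a3*, this call did not hold in any of the 8 fits without 1 mouse (adjusted *P* from 0.0552 to 0.139). In edgeR it was also lost with upper-quartile scaling (adjusted *P* = 0.0798) and with the replicate number as a block (adjusted *P* = 0.193). With the *Xist* covariate, edgeR gave -0.36 (adjusted *P* = 0.00831), and -0.33 among the mice with high *Xist* (adjusted *P* = 0.0534). Of 6 mesangial genes (median 0.02), 0 were called and 1 passed at an unadjusted *P* of 0.05, against 14% of all tested genes. *Serpine2* was at 0.43 (adjusted *P* = 0.330), *Des* at -0.21 (adjusted *P* = 0.486), and *Agtr1a* at -0.12 (adjusted *P* = 0.647) in edgeR's quasi-likelihood test.

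**Figure D5:**
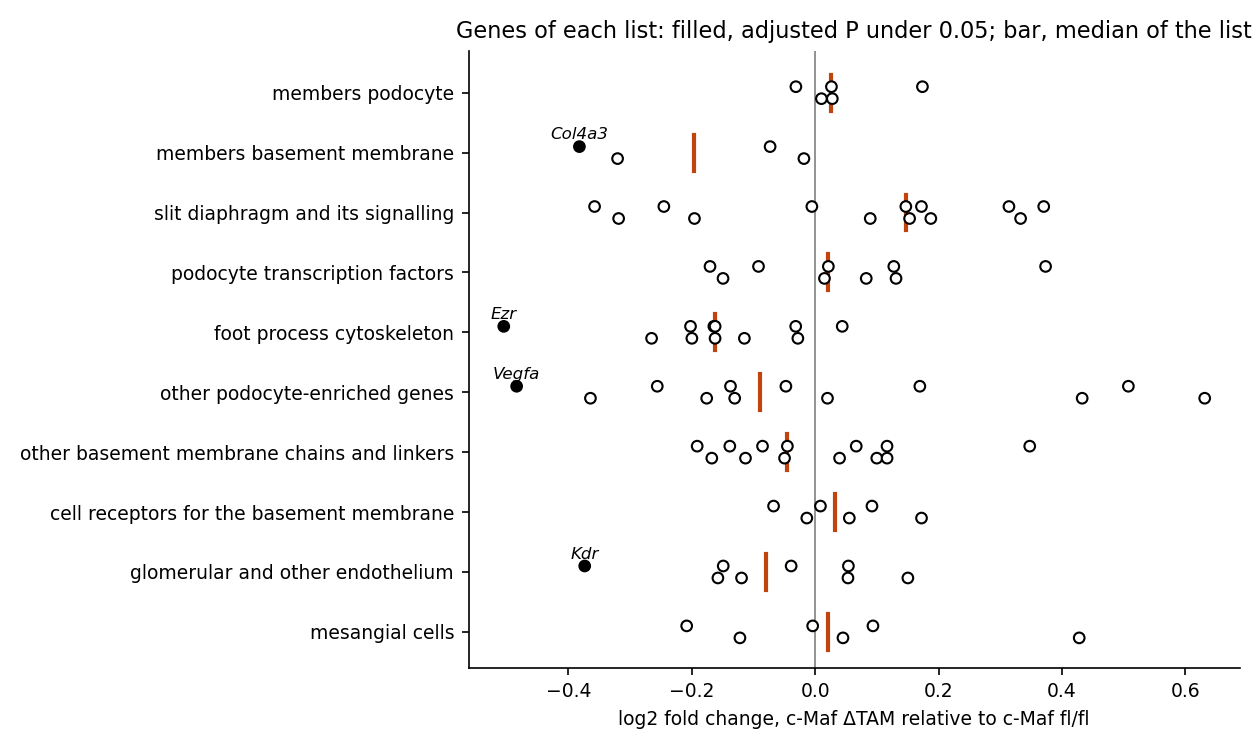
Log2 fold changes, c-Maf ΔTAM relative to control, of the genes in each list, 1 point a gene, with the list median as an orange bar and filled points for genes past the adjusted threshold of 0.05. The filled points are *Col4a3* (-0.38), *Ezr* (-0.50), *Vegfa* (-0.48), and *Kdr* (-0.37), and the podocyte medians lie between -0.16 and 0.15.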

How the data were processed

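Counts of reads per gene were analysed in all 8 mice, from kidney RNA depleted of rRNA and sequenced as 36-base read pairs with a directional kit. The authors deposited raw counts, made per the file headers with featureCounts 2.0.1 on exons grouped by gene name in Ensembl release 102 (GRCm38). Strand was ignored, each read of a pair was counted separately, and reads on exons of several genes were dropped. The submitters' notes list Subread 2.0.2 and edgeR 3.36.0. The aligner behind the counts was not given in the sources used here. The paper's own route to differential expression starts from reads and was not repeated.

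Genes were filtered with filterByExpr (20149 of 55367), scaled by TMM, and fitted over all genes with edgeR 4.0.16 (robust quasi-likelihood, no covariate, limma 3.58.1, R 4.3.3), with Benjamini-Hochberg adjustment at 0.05. Standard errors were taken as the size of the log2 fold change over the square root of F. CPM carry no added count. Ratios were tested with exact permutation over 70 assignments. The scripts were tested on simulated counts. Alternatives were RLE and upper-quartile factors, DESeq2 1.42.0, genes with at least 1 count, the replicate number as a block, *Xist* as a covariate, mice with high *Xist*, counts without mitochondrial and ribosomal RNA genes, and each mouse left out. Replicates of one genotype differed by more than counting noise. Figures used matplotlib 3.10.9 (Python 3.11.15), and no more than the 8 count columns held per-sample values (0 unused).

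The genes and lists were chosen with earlier results of these data known. Named genes are the 9, *Maf*, the called genes of each companion list or else the 3 with the smallest *P*, and the 5 genes most like the podocyte profile. *Lamb1* and other chains are given as partners of the 9. Tubule and hepatocyte markers served as a tissue check. *Slc34a1* and *Npnt* were named after their values were seen, as were *Sema3g*, *Robo2*, *Actn4*, and *Nid2*, which were called with *Xist* as a covariate. Another gene of the lists is not reported here by name.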

Additional observations from a re-analysis of the deposited data

Results flagged for a closer look

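For the 9 genes, *Maf*, the genes that the naming rule took from the companion lists, and the 7 ratios, the 4 mice of a genotype were examined for a mouse far from the others, taken as a gap to its nearest neighbor above Dixon's 95% limit, as a share of the whole range. Of 70 groups examined, 5 were past this limit, and chance alone gives about 3.5. *Ezr* was low in c-Maf ΔTAM mouse 1 (240.5 CPM against 297 to 308, a gap of 0.832 of the range) and in c-Maf fl/fl mouse 3 (341 CPM against 423 to 438, a gap of 0.844). *Ddr1* was low in c-Maf ΔTAM mouse 1 (125 CPM against 163 to 167.5, a gap of 0.889). *Kdr* was high in c-Maf fl/fl mouse 3 (120.5 CPM against 105 to 107, a gap of 0.863). The ratio of *Col4a3* to *Col4a4* was low in c-Maf ΔTAM mouse 1 (0.858 against 1.03 to 1.04, a gap of 0.957). Both mice are among the 3 with low *Xist*, and the part of that difference in these values was not tested.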

How the results depend on the processing

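*Col4a3* and *Col4a4* kept a negative log2 fold change under the 8 alternatives run (*Col4a3* -0.41 to -0.34, *Col4a4* -0.33 to -0.275) and with each mouse left out (*Col4a3* -0.41 to -0.34, *Col4a4* -0.36 to -0.29), but their calls depended on the setting. The call of *Col4a3* was lost with upper-quartile factors (-0.34), and *Col4a4* was called in DESeq2 (-0.33) and with *Xist* as a covariate (-0.29). Members called lower, 1 in the fit reported, were 0 with upper-quartile factors and in each of the 8 fits without 1 mouse (0 to 0), and 2 in DESeq2 and with the covariate. The numbers of the mice did not pair them: same-numbered mice deviated from their group means with correlations of -0.648, 0.376, -0.302, and -0.576. With the replicate number as a block, 0 members and 0 genes of the companion podocyte and basement membrane lists were called, *Col4a3* stood at -0.38 (adjusted *P* = 0.269, edgeR's quasi-likelihood test) and *Maf* at -4.28 (adjusted *P* = 0.0516), and 18 genes were higher and 111 lower.

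Values near 0 changed sign without a call in any setting, and the cause was not tested. *Nphs1* was 0.0094 and *Col4a5* 0.0234 with upper-quartile factors. With the *Xist* covariate, *Podxl* was -0.0269, *Synpo* -0.0927, and *Magi2* -0.0456. In the mice with high *Xist* they were -0.0212, -0.0505, and -0.0203, with *Nid1* at -0.0042. *Maf* did not change sign, but its call in the fit reported (-4.05) was lost in the mice with high *Xist* (-3.87, adjusted *P* = 0.108, edgeR's quasi-likelihood test). With each mouse left out, *Nphs1* ranged from -0.11 to 0.10, *Podxl* from -0.0197 to 0.0913, *Synpo* from -0.052 to 0.16, *Magi2* from -0.0287 to 0.0804, *Col4a5* from -0.12 to 0.0896, *Lamb2* from -0.17 to 0.0393, and *Ddr1* from -0.12 to 0.0262. The log2 ratios ranged from -0.027 to 0.118 for *Podxl* over *Nphs1*, from -0.038 to 0.092 for *Magi2* over *Nphs1*, and from -0.115 to 0.004 for *Col4a3* over *Col4a4*.

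Over all genes, 118 were called higher and 318 lower. These counts were 280 and 556 in DESeq2, 578 and 893 with the covariate, and 51 to 142 and 188 to 310 with a mouse left out. They were 322 and 467 in the mice with high *Xist*, and 191 and 409 among genes with at least 1 count. Among the companion podocyte and basement membrane lists, without the endothelial and mesangial ones, genes called higher, 0 in the fit reported, were 2 in DESeq2, 1 among genes with at least 1 count, 4 with the covariate, 1 in the mice with high *Xist*, and 0 to 1 with a mouse left out. Those called lower, 2 in the fit reported, were 1 with upper-quartile factors, 6 with the covariate, and 0 to 1 with a mouse left out.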
